A study of Mus musculus with 9 samples.

Results

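The genes described are 10 regulators and markers of the neural plate border and the neural crest, chosen by name out of 47729 genes with an FPKM value. They are the border factors Msx1, Msx2, Tfap2a, Tfap2b, Pax3 and Pax7, the crest specifiers Foxd3, Sox9 and Sox10, and the crest surface receptor gene Ngfr. Their RNA was measured in mouse embryonic stem cells (ESCs) without doxycycline (dox), at 0 h, and after 18 h and 24 h of dox (1 µg/ml), and each of the 3 time points has 3 biological replicates. All 9 libraries came from cells kept in LIF/serum that carried the same dox-inducible transgene for a forced E2A homodimer, in which a FLAG-tagged E47 is tethered to another E47 by a flexible linker, under a tetracycline-response element at a cassette exchange site upstream of Hprt. The labels do not say whether the line was a single clone. Libraries from cells that received dox without the transgene were not analysed here, so dox and the transgene cannot be told apart. All libraries at 18 h and 24 h had received dox, so hours in culture and dox cannot be told apart either. One protocol entry of the labels names other times than the sample titles and treatment entries, which were used.

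FPKM counts fragments per kilobase of gene, scaled to the size of the library, so levels of different genes can be set side by side. Each library held between 22028363 and 26471569 reads on genes of the filtered table, in which all 10 genes are present. Tcf3, which encodes E2A and on which reads of the mouse transgene can also fall, was higher in all libraries with dox than in all 0 h libraries, and its log2 fold-change (log2FC) was 1.49 at 18 h and 1.38 at 24 h. All 8 markers of pluripotent cells were detected at every time point, with a summed level of 822.5 to 1056 FPKM at 0 h and 610.2 to 813.8 FPKM at 24 h, and 1 of the 8, the Nodal co-receptor gene Tdgf1, was downregulated by limma at 24 h, as were 0.836% of all genes tested. The others did not move in one direction. Pou5f1, the core pluripotency factor gene, stood at 371±53.3 FPKM at 0 h and 248±33.4 FPKM at 24 h (-0.58; adjusted p = 0.0220), while Nanog was at 40.6±5.51 and 73.4±8.12 FPKM (0.86; adjusted p = 0.00735) and Klf4 at 6.14±1.58 and 8.01±1.74 FPKM (0.38; adjusted p = 0.297), all smaller in size than the log2FC of 1 required for a call. RNA was taken from whole cultures, so more cells with a transcript and more transcript per cell cannot be told apart.

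The neural plate border is the strip of ectoderm between the neural plate and the future epidermis. BMP, Wnt and FGF signals induce there a set of overlapping transcription factors, among them the Msx, AP-2 and Pax3/7 proteins. These factors in turn activate crest specifiers such as Foxd3, Snai2, Sox9 and Sox10, and the crest cells that follow delaminate, migrate and form peripheral neurons and glia, melanocytes and much of the facial skeleton. Foxd3 has another role before gastrulation, since it is also expressed in ESCs and the epiblast. E2A belongs to the E proteins, basic helix-loop-helix factors that bind E-box sequences, and Id proteins bind E proteins and keep them from DNA.

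Because E proteins bind E-boxes, the letters CANNTG were searched in the 250 bases before the start site of each gene in RefSeq promoters of GRCm38.p6. This word reads the same on both strands. A promoter was matched for 7 of the 10 genes, and none is given for Sox9, Sox10 and Pax3. Shown are the promoters that hold the word and belong to a gene called by limma, with or without the replicate block described later, 5′ to 3′ on the strand of the gene, with each CANNTG in capitals.
Ngfr promoter (chr11:95587699-95587948, minus strand): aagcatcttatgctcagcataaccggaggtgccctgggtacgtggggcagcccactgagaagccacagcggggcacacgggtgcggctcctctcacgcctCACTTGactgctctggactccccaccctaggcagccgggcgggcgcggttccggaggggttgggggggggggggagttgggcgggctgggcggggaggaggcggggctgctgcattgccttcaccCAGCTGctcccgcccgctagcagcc
Msx1 promoter (chr5:37824586-37824835, minus strand): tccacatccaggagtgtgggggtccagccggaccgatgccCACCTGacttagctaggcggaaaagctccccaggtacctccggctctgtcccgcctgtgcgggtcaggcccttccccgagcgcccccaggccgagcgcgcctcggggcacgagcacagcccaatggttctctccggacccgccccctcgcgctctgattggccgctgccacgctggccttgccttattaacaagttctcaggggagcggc
Msx2 promoter (chr13:53472781-53473030, minus strand): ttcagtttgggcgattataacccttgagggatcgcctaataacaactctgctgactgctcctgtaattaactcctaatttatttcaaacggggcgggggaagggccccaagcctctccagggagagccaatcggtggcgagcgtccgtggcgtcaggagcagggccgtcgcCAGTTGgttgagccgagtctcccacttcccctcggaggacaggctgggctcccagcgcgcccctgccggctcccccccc
Foxd3 promoter (chr4:99656049-99656298, plus strand): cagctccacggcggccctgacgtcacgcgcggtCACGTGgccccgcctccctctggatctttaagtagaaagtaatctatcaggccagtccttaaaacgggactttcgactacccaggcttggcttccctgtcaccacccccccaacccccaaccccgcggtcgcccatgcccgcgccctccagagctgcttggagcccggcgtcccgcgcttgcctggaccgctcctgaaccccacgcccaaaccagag
The Ngfr promoter holds CACTTG and CAGCTG, which begin at -150 and -25 from the start site. Msx1 holds CACCTG at -210, Msx2 CAGTTG at -79 and Foxd3 CACGTG at -217. Among the genes not printed, both promoters of Tfap2a, which was also called, and the Pax7 promoter hold no such letters, and Tfap2b, called by edgeR alone, holds CATTTG at -58. The word CANNTG occurs in 66.2% of 32851 promoters of this length, CAGCTG in 13.0% and CAGGTG or its complement CACCTG in 17.2%. These letters describe the windows and are not shown to be bound. The gene models of GENCODE M21 begin further upstream for Msx2, Tfap2a, Tfap2b, Pax7 and Ngfr, so a part of the Ngfr window and all of the windows of the other 4 genes lie within those models.

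Before dox, Foxd3 and Ngfr had by far the highest levels of the set and the other genes were at less than 0.5 FPKM in each library. Foxd3, at 8.63±1.94 FPKM (mean±s.d., n=3), lay above Ngfr, at 3.70±0.693 FPKM, in all libraries at 0 h. Sox10 (0.398±0.106 FPKM), Tfap2a (0.309±0.0387), Msx1 (0.278±0.161) and Msx2 (0.241±0.0503) followed, and each overlapped its neighbours in this order. Sox9 (0.0398±0.0429 FPKM), Pax3 (0.0232±0.0102), Pax7 (0.00785±0.0136) and Tfap2b (0.00242±0.00419) came last and also overlapped, with 0 to 8 reads per library. With dox the order of the leading genes was exchanged. At 24 h Ngfr stood at 14.1±1.72 FPKM and Foxd3 at 3.69±0.630 FPKM, and all libraries at 18 h and 24 h had more Ngfr than Foxd3. Tfap2a (0.808±0.169 FPKM), Msx2 (0.709±0.197) and Msx1 (0.649±0.137) were next at 24 h and overlapped one another. They lay above Sox10 (0.262±0.0991 FPKM), Sox9 (0.248±0.117) and Pax3 (0.168±0.0398), which overlapped among themselves. Pax7 (0.0325±0.0166 FPKM) and Tfap2b (0.0300±0.00910) remained last.

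**Figure D1:**
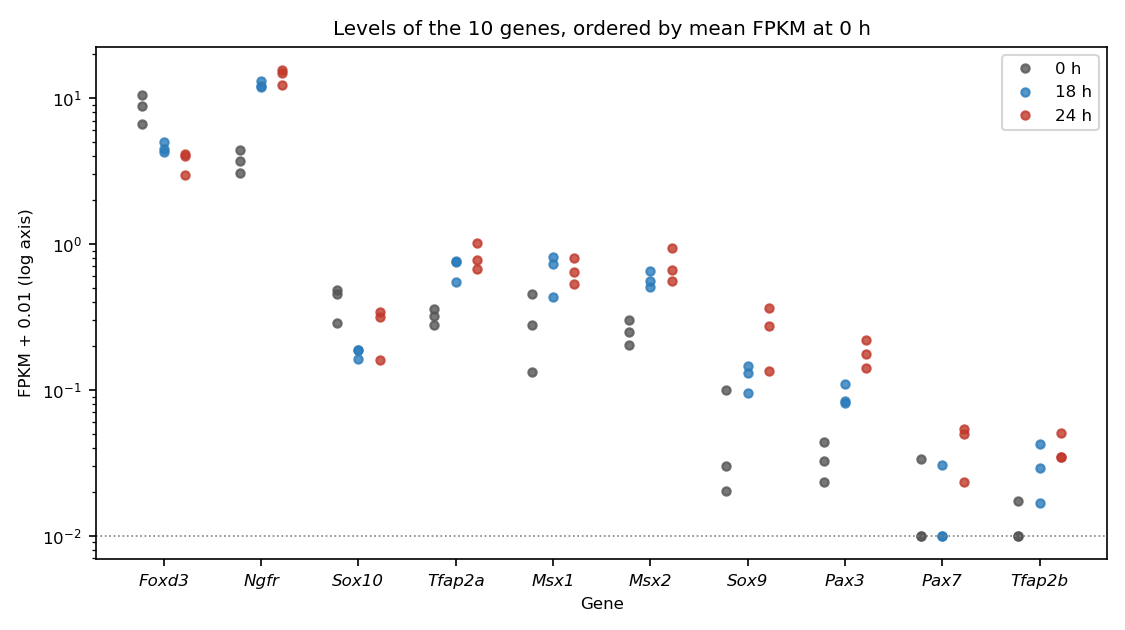
Level of each of the 10 genes in the 9 libraries, as FPKM plus 0.01 on a log axis, in the order of their mean at 0 h. Points are single libraries at 0 h (grey), 18 h (blue) and 24 h (red) and the dotted line marks 0 FPKM. Foxd3 leads at 0 h and Ngfr at 18 h and 24 h, while Pax7 and Tfap2b stay below 0.05 FPKM throughout.

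To ask how the genes changed with dox, each time point with dox was compared with 0 h. A limma fit was used over the 17951 genes with a mean of at least 0.1 FPKM. This filter admitted 7 of the 10 genes. Pax3, with a mean of 0.0910 FPKM, Tfap2b and Pax7 fell below it and were tested with edgeR on the recovered reads. Genes were called where the adjusted p did not exceed 0.05 and the log2FC reached 1 in either direction. At 24 h, 4 of the 7 genes were upregulated (Ngfr, Msx2, Tfap2a and Sox9), against 2.07% of all genes tested, and 1 was downregulated (Foxd3), against 0.836%. Sox9 passed the filter only through the libraries with dox, since its mean was 0.0398 FPKM at 0 h, so these counts describe the genes that could be tested. At 18 h Ngfr was the 1 gene upregulated, against 1.33% of all genes, and 0 were downregulated, against 0.724%. At an unadjusted p below 0.05 Foxd3 (-0.88; adjusted p = 0.0196) and Sox10 (-0.87; adjusted p = 0.0956) were also lower at 18 h. Both were under the minimum fold-change, and DESeq2 and edgeR without the block too called 0 lower. With the replicate number as a block, Msx1 was added to the upregulated genes at both times, which gave 2 at 18 h, against 1.71% of all genes, and 5 at 24 h, against 2.34%. The block also raised the downregulated genes at 18 h over all genes from 130 to 199. In edgeR, which could test all 10, the upregulated genes numbered 4 at 18 h (Ngfr, Tfap2a, Msx2 and Pax3), against 1.99%. At 24 h they numbered 6 (the same 4 with Sox9 and Tfap2b), against 2.81%. Over the 0 h libraries Sox9, Pax3 and Tfap2b had 11, 10 and 1 reads, against 81, 81 and 15 at 24 h. Their place in the filtered table may rest on the libraries with dox, so these counts too describe the genes that could be tested. Foxd3 was the 1 gene downregulated in edgeR at 24 h, against 1.25%, and at 18 h the count was 0, against 1.04%.

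The single libraries show the same directions without a threshold. At 24 h, 7 of the 10 genes lay above 0 h in all libraries without overlap (Ngfr, Sox9, Tfap2a, Tfap2b, Msx1, Msx2 and Pax3), which holds for 16.9% of the genes in the filtered table, and Foxd3 lay below, which holds for 14.2%. Sox10 and Pax7 overlapped. The limit of few reads at 0 h applies here to Sox9, Pax3 and Tfap2b as well. At 18 h, 4 genes lay above without overlap (Ngfr, Tfap2a, Msx2 and Pax3), against 14.4%, and 2 lay below (Foxd3 and Sox10), against 13.5%.

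**Figure D2:**
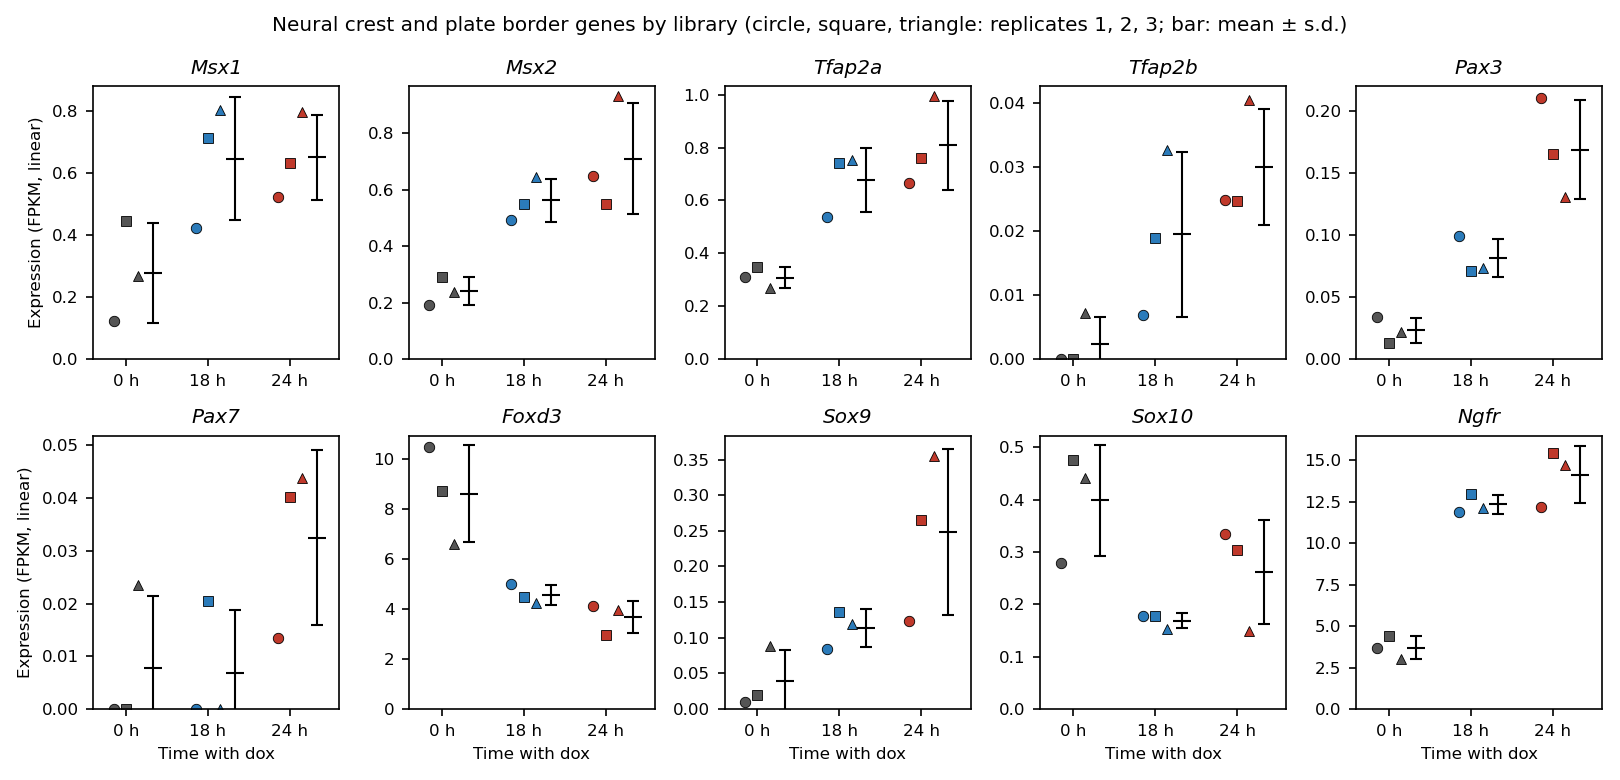
Expression of each gene in FPKM on a linear axis that starts at 0, by time with dox, with a separate scale for each gene. Circles, squares and triangles are replicates 1, 2 and 3 and the bar gives mean and s.d., with the lower part of a bar that would pass 0 left out. The 24 h libraries lie above the 0 h libraries for 7 genes and below them for Foxd3.

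Msx1 and Msx2 encode homeodomain repressors that BMP signalling induces at the border and in the dorsal neural tube. Msx1 (ENSMUSG00000048450) lies at chr5:37820485-37824583 of GRCm38 (minus strand, 2 exons). It was expressed at 0.122, 0.444 and 0.267 FPKM in replicates 1, 2 and 3 at 0 h, at 0.424, 0.713 and 0.801 FPKM at 18 h, and at 0.521, 0.633 and 0.794 FPKM at 24 h. The 0 h replicates spread widely, and replicate 2 at 0 h exceeded replicate 1 at 18 h, but within each replicate number both times with dox were higher than 0 h. The log2FC was 1.04 at 18 h (s.e. 0.347; adjusted p = 0.102, or 0.0209 with the replicate block). The 24 h value was 1.07 (s.e. 0.347; adjusted p = 0.0794, or 0.0158 with the block). Msx1 therefore passed the thresholds in limma when replicates were compared within their number and not in the fit without the block. DESeq2, without a block, also called it at both times. EdgeR without a block did not (1.21 at both times; adjusted p = 0.0637 at 18 h and 0.0512 at 24 h). Without replicate 2 at 0 h the values were 1.35 (adjusted p = 0.0462) and 1.38 (adjusted p = 0.0392), which passed without the block. Without replicate 1 at 0 h, the lowest of its group, they were 0.70 (adjusted p = 0.261) and 0.73 (adjusted p = 0.214).

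Msx2 (ENSMUSG00000021469), at chr13:53466884-53473074 (minus strand, 2 exons), showed a tighter baseline. Its level was 0.192, 0.292 and 0.238 FPKM at 0 h, 0.493, 0.551 and 0.643 FPKM at 18 h, and 0.648, 0.550 and 0.929 FPKM at 24 h. All libraries with dox lay above all 0 h libraries, and these levels rest on 15 to 83 reads per library. At 24 h Msx2 was upregulated by a log2FC of 1.23 (s.e. 0.229; adjusted p = 0.0116), which became 0.46, under the minimum, with a pseudocount of 1. The 18 h value was 0.96 (adjusted p = 0.0363), just under the minimum of 1. It was 1.07 (adjusted p = 0.0401) without replicate 2 at 0 h, and edgeR gave 1.22 (adjusted p = 0.0163).

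Tfap2a and Tfap2b encode AP-2 factors, which are needed at the border and later in the crest. Tfap2a (ENSMUSG00000021359) lies at chr13:40715302-40738376 (minus strand, 12 merged exons). Antisense genes overlap it (Gm47061, Gm26688 and Gm47067), of which Gm26688 reached at most 0.0703 FPKM and the others have no FPKM value. The study's methods name a stranded library kit. How strand was used in the counting is not given in the sources used here, so their reads cannot be told apart with certainty. Tfap2a was expressed at 0.310, 0.347 and 0.269 FPKM at 0 h, at 0.539, 0.742 and 0.752 FPKM at 18 h, and at 0.667, 0.761 and 0.996 FPKM at 24 h. The lowest library with dox was higher than the highest without. Tfap2a was upregulated at 24 h by a log2FC of 1.14 (s.e. 0.207; adjusted p = 0.0106). This call rests partly on replicate 3 at 24 h, without which the value was 0.996 (adjusted p = 0.0473), under the minimum, as was the 0.46 obtained with a pseudocount of 1. The 18 h value was 0.92 (adjusted p = 0.0299). It was 1.06 (adjusted p = 0.0342) without replicate 1 at 18 h and 1.13 (adjusted p = 0.0137) in edgeR.

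Tfap2b (ENSMUSG00000025927), at chr1:19208914-19238576 (plus strand, 8 merged exons), was at the limit of detection. It had 0, 0 and 1 reads at 0 h, 1, 3 and 5 reads at 18 h, and 4, 4 and 7 reads at 24 h. Summed over replicates, the 15 reads at 24 h against 1 read at 0 h give a ratio of 13.8, with a 95% exact interval from 2.13 to 581 that covers counting error only. In edgeR Tfap2b was upregulated at 24 h (log2FC 3.33; adjusted p = 0.0415) and did not pass at 18 h (2.73; adjusted p = 0.131). The size of this rise was poorly measured, as the wide interval shows.

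Pax3 and Pax7 encode paired-box factors that mark the border, the dorsal neural tube and the early crest. Pax3 (ENSMUSG00000004872) lies at chr1:78101267-78197134 (minus strand, 9 merged exons). Its level was 0.0339, 0.0135 and 0.0223 FPKM at 0 h, 0.0990, 0.0713 and 0.0735 FPKM at 18 h, and 0.210, 0.165 and 0.131 FPKM at 24 h. These values correspond to 5, 2 and 3 reads at 0 h, 14, 11 and 11 reads at 18 h, and 33, 26 and 22 reads at 24 h. The 3 time points did not overlap, and Pax3 was the 1 gene of the set that lay higher at 24 h than at 18 h in all libraries, which holds for 6.81% of genes. In edgeR Pax3 was upregulated at 18 h (log2FC 1.77; adjusted p = 0.0285) and at 24 h (2.81; adjusted p = 0.000880). As a ratio of summed reads the level at 24 h was 7.46 times that at 0 h (95% exact interval 3.85 to 16.1, counting error only). Without the filter on low values limma gave a log2FC of 1.12 at 24 h (adjusted p = 0.0121) and 0.56 at 18 h (adjusted p = 0.136). The 0.1 FPKM added to each value is larger than most Pax3 levels and compresses this scale.

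Pax7 (ENSMUSG00000028736), at chr4:139737062-139833528 (minus strand, 9 merged exons), had 0, 0 and 3 reads at 0 h, 0, 3 and 0 reads at 18 h, and 2, 6 and 7 reads at 24 h. The groups overlapped, and edgeR gave a log2FC of 2.01 at 24 h (adjusted p = 0.245). The summed reads of 15 against 3 give a ratio of 4.60 (95% exact interval 1.30 to 24.8, counting error only). A difference was not detectable at this depth in the test over replicates.

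Among the crest specifiers, Foxd3, which encodes a forkhead repressor, was the 1 gene of the set that was downregulated at 24 h, by limma, edgeR and DESeq2. Foxd3 (ENSMUSG00000067261) is a gene of 1 exon at chr4:99656299-99658622 (plus strand). The short gene Gm23366 lies within it and was at 0 FPKM in all libraries. Foxd3 was expressed at 10.5, 8.75 and 6.63 FPKM at 0 h, at 5.01, 4.47 and 4.25 FPKM at 18 h, and at 4.13, 2.97 and 3.97 FPKM at 24 h. Each step was downward in every replicate, and the 3 time points did not overlap. The decrease from 18 h to 24 h without overlap is shared by 5.88% of genes. Foxd3 was downregulated at 24 h by a log2FC of -1.19 (s.e. 0.176; adjusted p = 0.00469). The 18 h value was -0.88 (s.e. 0.176; adjusted p = 0.0196), smaller in size than the minimum. Leaving out replicate 3 at 0 h, the lowest of its group, took the 18 h value to -1.05 (adjusted p = 0.0121). The call at 24 h held in all 18 alternatives run for it.

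Sox9 encodes a SoxE factor that promotes crest formation and later cartilage. It lies (ENSMUSG00000000567) at chr11:112782224-112787760 (plus strand, 3 exons). Its level was 0.0101, 0.0202 and 0.0890 FPKM at 0 h, 0.0846, 0.136 and 0.120 FPKM at 18 h, and 0.124, 0.265 and 0.355 FPKM at 24 h, on 1 to 40 reads per library. Every 24 h library was higher than every 0 h library, but the 24 h replicates differed widely. At 24 h Sox9 was upregulated by limma by a log2FC of 1.30 (s.e. 0.355; adjusted p = 0.0464), and by edgeR, with 2.65 (adjusted p = 0.0111). This call is close to the threshold. It was lost without replicate 1 or 2 at 0 h, any of the 18 h replicates, or replicate 2 or 3 at 24 h, with an adjusted p of 0.0590 to 0.152 and a log2FC of 1.07 to 1.30. It was also lost with a pseudocount of 1 (0.26; adjusted p = 0.0580), with no filter (1.30; adjusted p = 0.0518) and after quantile normalization (1.20; adjusted p = 0.0703). As a ratio of summed reads, 81 at 24 h against 11 at 0 h, the Sox9 level was 6.78 times that before dox (95% exact interval 3.60 to 14.1, counting error only). The 18 h value was 0.65 (adjusted p = 0.293) by limma and was not called, whereas edgeR with the replicate block called it (1.56; adjusted p = 0.0336), and the level was higher than at 0 h in all 3 replicate pairs.

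Sox10 encodes the related SoxE factor of migrating crest, glia and melanocytes. It lies (ENSMUSG00000033006) at chr15:79154908-79165240 (minus strand, 5 exons). Sox10 was expressed at 0.278, 0.476 and 0.441 FPKM at 0 h, at 0.177, 0.177 and 0.152 FPKM at 18 h, and at 0.334, 0.303 and 0.149 FPKM at 24 h. All 18 h libraries were below all 0 h libraries, whereas at 24 h 1 of 3 replicates was above its 0 h counterpart. The log2FC was -0.87 at 18 h (s.e. 0.284; adjusted p = 0.0956). The 24 h value was -0.48 (s.e. 0.284; adjusted p = 0.303), with a 95% interval from -1.12 to 0.16. EdgeR gave -1.23 at 18 h (adjusted p = 0.0518), and with the replicate block it called Sox10 lower (-1.22; adjusted p = 0.0151). At 24 h Sox10 was called in none of the fits run, and the limma interval does not reach the values of Tfap2a or Msx2. The 2 SoxE genes had fold-changes of opposite sign at both times, a difference that was not tested.

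Ngfr encodes the p75 neurotrophin receptor, by which migrating crest cells are often sorted. Ngfr (ENSMUSG00000000120) lies at chr11:95568818-95587735 (minus strand, 6 exons). It was expressed at 3.66, 4.41 and 3.03 FPKM at 0 h, at 11.9, 13.0 and 12.2 FPKM at 18 h, and at 12.2, 15.5 and 14.7 FPKM at 24 h. The groups with dox lay well apart from 0 h and were narrow, on 227 to 1383 reads per library. Ngfr was upregulated at 18 h by a log2FC of 1.73 (s.e. 0.135; adjusted p = 0.000272). The 24 h value was 1.91 (s.e. 0.135; adjusted p = 0.000129). Both calls held in all 18 alternatives run, with log2FC values of 1.51 to 1.86 at 18 h and 1.69 to 2.04 at 24 h. Of the 7 genes tested by limma, Ngfr had the smallest standard error and was the 1 already upregulated at 18 h without the block.

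**Figure D3:**
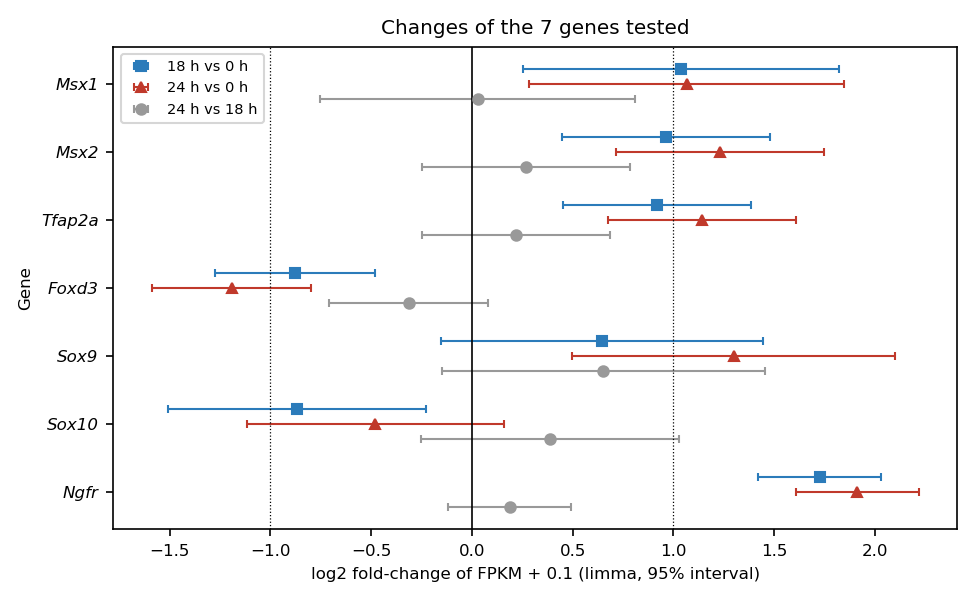
The log2 fold-change of FPKM+0.1 for the 7 genes tested by limma, at 18 h and 24 h compared with 0 h (blue squares, red triangles) and at 24 h compared with 18 h (grey circles). Bars are 95% intervals from the fit over 9 libraries, and dotted lines mark the minimum of 1 in either direction. The 24 h values of Ngfr, Sox9, Msx2 and Tfap2a lie beyond 1, as does that of Msx1 (1.07), which was not called without the replicate block, and that of Foxd3 beyond -1, while all grey bars cross 0.

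The last comparison asked whether these genes went on changing between 18 h and 24 h. Of the 7 genes tested by limma, 0 were called in either direction, against 0.0167% of all genes higher and 0.00557% lower, and 0 had an unadjusted p below 0.05. EdgeR also called 0 of the 10 genes, with 2 genes at an unadjusted p below 0.05. With the replicate block edgeR called 0 as well. Its unadjusted p was below 0.05 for Pax3, Sox9, Foxd3, Ngfr and Pax7 (adjusted p of 0.124 to 0.375). Ngfr, Sox9, Tfap2a, Tfap2b, Pax3 and Pax7 were higher at 24 h in all 3 replicate pairs. Foxd3 was lower in all 3, and the other genes went both ways. DESeq2 gave an adjusted p for 5 of the 10 and called 0 of these, with 1 of the 10, Pax3, at an unadjusted p below 0.05. The interval for Ngfr ran from -0.12 to 0.49 and that for Foxd3 from -0.71 to 0.08. For Msx1, with a log2FC of 0.03, it ran from -0.75 to 0.81. The low genes were measured too loosely to settle this question. Sox9 had 0.65 (interval -0.15 to 1.45) by limma, and by edgeR Pax3 had 1.04 (adjusted p = 0.920).

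Across the 9 libraries the upregulated border factors varied together. Pearson's r of log2(FPKM+0.1) was 0.965 between Tfap2a and Msx2, 0.958 between Tfap2a and Ngfr, and 0.890 between Msx1 and Msx2. Foxd3 ran opposite to these genes, with r of -0.893 with Ngfr. Sox9 had its closest relation to Foxd3, with r of -0.888. Sox10 was loosest, with r of -0.720 to 0.468 with the other 6 genes. These values include the difference between the time points that all libraries share, so they describe the time course and carry no test.

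For each gene called at 24 h, the genes most like it over the 9 libraries were sought among all genes tested. Those closest to Ngfr were Elfn1 (r = 0.994), the E protein inhibitor gene Id2 (0.993) and the GATA factor gene Gata2 (0.991). Closest to Tfap2a were Lrrc8c (0.993), 1810041L15Rik (0.986) and Gnal (0.986), and closest to Msx2 were Fam122a (0.986), Arfgap1 (0.986) and Gnb4 (0.985). Sox9 was followed by Vezt (0.985), Atp10d (0.979) and Slc22a23 (0.978). Foxd3 was followed by Gpr4 (0.979), Prx (0.975) and Enox1 (0.974). None of these 15 genes is among the 10, of which 7 were among the genes tested. The values of r include the difference between time points for which the genes were called, and they carry no test. They also take no account of the size of a change. Vezt, the closest to Sox9, was at 1.22 FPKM at 0 h and 1.48 FPKM at 24 h.

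Other genes of the border and crest network were then counted in lists, beside a median log2FC at 24 h of 0.0040 over all genes tested. For these and the later lists, limma called 2.07% of all genes higher and 0.836% lower at 24 h. At 18 h the shares were 1.33% and 0.724%. EdgeR called 2.81% higher and 1.25% lower at 24 h. The lists share some genes. The 12 other crest specifiers tested had a median log2FC of 1.05 at 24 h, or 0.65 over 15 genes with no filter. Of the 12, 6 were upregulated by limma at 24 h and 0 were downregulated. They were the Snail repressor genes Snai1 and Snai2, the E-box binding repressor gene Zeb2, the SoxE gene Sox8, the cadherin gene Cdh6 and the Id gene Id3. Snai2, which drives crest cells to delaminate, stood at 0.207±0.0569 FPKM before dox, 1.37±0.0248 FPKM at 18 h and 1.77±0.450 FPKM at 24 h, with a log2FC of 2.59 at 24 h (adjusted p = 0.000330). Id3 went from 14.1±4.06 to 246±17.4 and 257±23.4 FPKM, with 4.21 (adjusted p = 8.82e-06). Snai1 was at 2.15±0.245, 5.01±0.215 and 4.86±0.448 FPKM, with 1.15 at 24 h (adjusted p = 0.000605). At 18 h the upregulated specifiers were Id3, Snai2 and Snai1. Not all specifiers followed, since Myc had -0.65 (adjusted p = 0.00162) and the retinoid receptor gene Rxrg -0.96 (adjusted p = 0.0378), both smaller in size than the minimum. Rxrg was called lower by edgeR (-1.003; adjusted p = 0.0216) and DESeq2 (-1.01; adjusted p = 0.00277), which also called Nr2f2, an orphan receptor gene below the limma filter, higher (1.67 and 1.69; adjusted p = 0.0264 and 0.0414).

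The limma calls of Sox8 (1.19), Zeb2 (1.25) and Cdh6 (1.28) at 24 h were close to the threshold of adjusted p. They did not hold in every fit that left out a library, whereas edgeR and DESeq2 also called these genes at 24 h. Sox8 was lost without replicate 1 or 3 at 0 h or replicate 1 or 2 at 24 h (log2FC 1.06 to 1.16; adjusted p = 0.0634 to 0.0875). Zeb2 was lost without replicate 1 or 2 at 0 h, replicate 3 at 18 h, or replicate 2 or 3 at 24 h (1.01 to 1.30; adjusted p = 0.0503 to 0.115). Cdh6 was lost without replicate 2 or 3 at 24 h (1.28 and 1.12; adjusted p = 0.0549 and 0.0626). With a pseudocount of 1 the upregulated specifiers numbered 2, Id3 and Snai2.

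Of 9 other border genes tested, 1 was upregulated by limma at 24 h, with a list median of 0.28. This was Gata2, which rose from 0.105±0.0409 FPKM at 0 h to 0.740±0.0643 FPKM at 24 h (log2FC 2.05; adjusted p = 0.000942) and was also called at 18 h (1.77; adjusted p = 0.00234). With a pseudocount of 1 Gata2 had 0.53 at 18 h and 0.66 at 24 h and was not called. The AP-2 gene Tfap2c, at 5.45±1.15 FPKM at 0 h and 11.0±2.57 FPKM at 24 h, had a log2FC of 0.998 (adjusted p = 0.0365), just under the minimum, and was called by edgeR (1.01; adjusted p = 0.0113) and DESeq2 (1.00; adjusted p = 0.00995). Genes of crest derivatives, which mark melanocytes, glia and peripheral neurons, had 2 of 10 upregulated by limma at 24 h, with a median of 0.055. Fabp7, a glial fatty acid binding protein gene, went from 0.387±0.122 to 0.983±0.129 FPKM (1.18; adjusted p = 0.0105). Isl1, a LIM homeobox gene of sensory neurons, went from 0.0433±0.0275 to 0.303±0.135 FPKM (1.46; adjusted p = 0.0227). Its 0 h level was under the 0.1 FPKM of the filter, which it passed only through the libraries with dox. With a pseudocount of 1 neither was called, with 0.52 for Fabp7 and 0.32 for Isl1. Fabp7 had 0.974 (adjusted p = 0.0211) without replicate 3 at 0 h. Isl1 did not pass without replicate 2 or 3 at 0 h or replicate 1 or 2 at 24 h (1.20 to 1.54; adjusted p = 0.0522 to 0.0616). Both genes were also called at 24 h by edgeR and DESeq2.

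Genes for the signals that induce the border were listed together with the BMP antagonist genes Nog and Chrd. This mixed list had a median of 0.69 at 24 h, or 0.25 with a pseudocount of 1. Chrd was at 0.459±0.0923 FPKM at 0 h and 0.887±0.103 FPKM at 24 h. Nog was at 1.22±0.314 and 1.62±0.893 FPKM, and neither was called. Of 10 tested, 1 was upregulated by limma at 24 h. This was the BMP ligand gene Bmp7, at 1.16±0.225 FPKM at 0 h, 12.0±2.48 FPKM at 18 h and 14.1±3.28 FPKM at 24 h (log2FC 3.49; adjusted p = 5.83e-05). EdgeR also called the Wnt ligand gene Wnt3a at 24 h (1.26; adjusted p = 0.0293). Bmp4, another ligand gene, had a log2FC of -0.36 (adjusted p = 0.294). Of 6 genes that respond to BMP signalling, 3 were upregulated at both times, with a median of 1.32 at 24 h. All 3 were Id genes (Id1, Id2 and Id3), which encode inhibitors of E proteins. The other 3 (Smad6, Smad7 and Bambi) had log2FC values of -0.27 to 0.69 at 24 h and were not called. Of 12 surface ectoderm and placode genes tested, 1 was upregulated by limma, the keratin gene Krt8 (1.21; adjusted p = 0.000878), with a list median of 0.17. EdgeR also called Eya2 at 24 h (1.16; adjusted p = 0.0474).

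**Figure D4:**
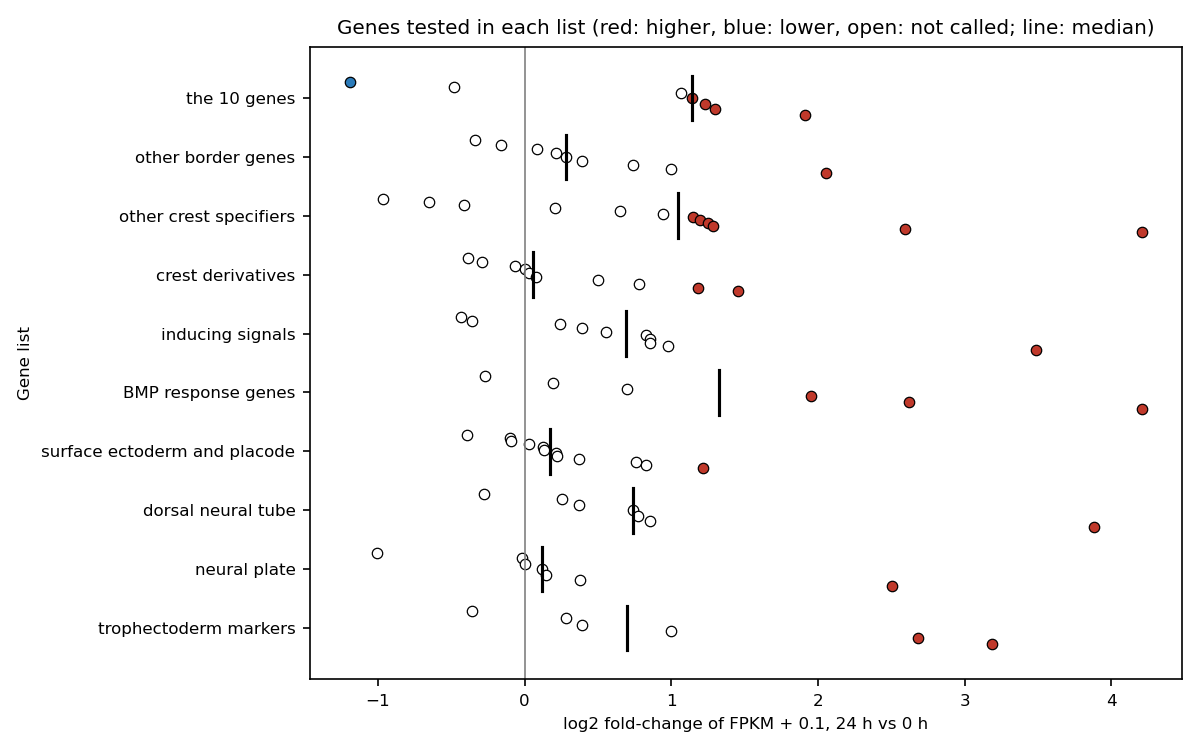
The log2 fold-change of FPKM+0.1 at 24 h compared with 0 h for each gene tested, by list. Filled red points were upregulated, filled blue points downregulated and open points not called, and the vertical bar is the median of the list. The 7 tested of the 10 genes, the other crest specifiers and the BMP response genes have medians above 1 (0.37, 0.47 and 1.11 with a pseudocount of 1). With no filter the median of the crest specifiers was 0.65. Surface ectoderm, neural plate and crest derivative genes have medians near 0.

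Msx2, Tfap2a and Gata2 are also expressed in trophectoderm, so markers of other cell types were measured beside them. Of 6 trophectoderm markers tested, 2 were upregulated by limma at both times, against 1.33% of all genes at 18 h and 2.07% at 24 h. They were Cdx2 (log2FC 2.68 at 24 h; adjusted p = 0.00117) and Hand1 (3.19; adjusted p = 9.32e-05), and the list median was 0.70 at 24 h. The summed level of the 7 markers on this list was 8.63 to 10.4 FPKM at 0 h, 20.8 to 26.2 FPKM at 18 h and 24.9 to 31.0 FPKM at 24 h. Tfap2c, also on this list, was called at 24 h by edgeR and DESeq2, which gave 3 of 6, and Krt7 had a log2FC of 0.39 (adjusted p = 0.254). Elf5 stayed at 0.0192±0.0146 FPKM or less, Eomes had a log2FC of -0.36 (adjusted p = 0.240) and Gata3 one of 0.28 (adjusted p = 0.420). Their part in the levels of Msx2, Tfap2a and Gata2 was not tested. Of 5 mesoderm, 4 endoderm and 3 fibroblast markers tested, 0 were called at 18 h or 24 h by limma, edgeR or DESeq2. EdgeR with the replicate block called T lower at 24 h (-1.02; adjusted p = 0.000710) and the endoderm gene Sox7, below the limma filter, lower at 18 h (-1.70; adjusted p = 0.0305). At an unadjusted p below 0.05 by limma, the endoderm gene Foxa2 was higher at 24 h (0.65; adjusted p = 0.123) and the fibroblast gene Thy1 lower at 18 h (-0.75; adjusted p = 0.0573) and 24 h (-0.74; adjusted p = 0.0494). The highest of each list by the mean at 0 h were T (1.27±0.479 FPKM at 0 h and 0.636±0.260 at 24 h), Gata6 (0.315±0.0247 and 0.333±0.0860) and Col1a2 (3.01±1.91 and 2.66±1.32). Their summed levels overlapped between 0 h and 24 h.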

How the data were processed

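RNA-seq was analysed for 9 libraries, 3 biological replicates at each of 0 h, 18 h and 24 h. According to the study's methods the authors aligned reads with STAR and tested them with edgeR. How the deposited FPKM were computed is not given in the sources used here. Cutadapt 1.9 and edgeR 3.16.5 are named in the submitters' processing notes. Whether strand was used and how reads with several alignments were counted is not given in the sources used here. The deposited FPKM table holds 47729 genes, of which 19906 are at 0 in all libraries, and a filtered table holds 19210 with a signal per library, which the authors made as CPM scaled to an effective library size. The filtered table also holds the authors' mean CPM per time point, and log2 fold-changes, p-values and FDR of the authors' own comparisons, which were not used. Gene coordinates are from GENCODE M21 on GRCm38.

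FPKM values were analysed as log2(FPKM+0.1) with limma 3.58.1 (R 4.3.3), with an empirical Bayes trend over all 9 libraries, for genes with a mean of at least 0.1 FPKM, and p-values were adjusted by Benjamini-Hochberg over all genes tested. Fold-changes on this scale understate the change of low genes. In each library 100% of the scaled CPM values of the filtered table were whole multiples of 1 read within 0.02, so reads were recovered and tested with edgeR 4.0.16 (quasi-likelihood) and DESeq2 1.42.0. All tests were two-sided. Exact permutation of 3 against 3 libraries cannot give p below 0.1. Intervals of read ratios are exact and cover counting error only.

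Replicates with the same number deviated together (Pearson's r of deviations from the group means over 11893 genes, mean 0.325, range 0.211 to 0.548 over 9 pairs of libraries, against a mean of -0.161 for different numbers), and the study's replicates are separate experiments, so the number was also fitted as a block. Other alternatives were pseudocounts of 1 and 0.01, no filter or a mean of at least 1 FPKM, quantile normalization, no minimum fold-change and leaving out each library.

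The 10 genes and the gene lists were chosen with earlier results of these data known. One gene of the crest derivative list is not reported here and is left out of that list's counts. All 10 genes are named, as are list genes called by limma in any comparison, the highest gene of a list with none called, and the 3 genes closest to each of the 10 that was called at 24 h by limma. Myc, Rxrg, Tfap2c, Bmp4, Nog, Chrd, Smad6, Smad7, Bambi, Elf5, Eomes, Gata3, Krt7, Nr2f2, Sox7, Foxa2, Thy1, Wnt3a, Eya2, Pax8, Pou5f1, Nanog, Klf4, Lmx1a, Hesx1 and Nes were named after their values were seen. The limma fit without the block was tested on simulated reads for 24 h compared with 0 h. Genes with few reads were not among those changed in the simulation. EdgeR, DESeq2 and the block were not tested in this way.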

Additional observations from a re-analysis of the deposited data

How the results depend on the processing

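Over the alternatives, 341 fold-changes of the 10 genes kept their direction and side of the threshold, 21 passed it newly, 15 no longer passed and 4 changed sign, all of Msx1 at 24 h compared with 18 h (log2FC 0.03), with -0.028 after quantile normalization, -0.0034 in DESeq2 and -0.21 to 0.18 without single libraries. The cause of these shifts was not tested. Upregulated genes at 18 h, 239 in all, numbered 66 with a pseudocount of 1, 125 with a mean of at least 1 FPKM, 383 in edgeR, 505 in edgeR with the replicate block and 766 with no minimum fold-change, and 158 to 242 without single libraries. Downregulated genes at 18 h, 130, numbered 54, 85, 200, 311 and 667 under the same settings, 199 with the replicate block in limma and 65 to 176 without single libraries. At 24 h the 371 upregulated genes became 84, 166, 678 (edgeR with the block) and 1171, and 240 to 354 without single libraries. The 150 downregulated genes became 67, 99, 241 (edgeR), 340 and 917, and 79 to 185. Between 24 h and 18 h, 3 genes were higher and 1 was lower. The higher genes numbered 0 with a pseudocount of 1, with a mean of at least 1 FPKM, in edgeR and in DESeq2, 1 with a pseudocount of 0.01, 7 in edgeR with the block, and 0 to 6 without single libraries. The lower genes numbered 0 with either pseudocount, with a mean of at least 1 FPKM and in edgeR, 2 with no filter, in DESeq2 and in edgeR with the block, and 0 to 5 without single libraries.

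Among the 10 genes, 1 was upregulated at 18 h, against 3 with a pseudocount of 0.01 or no minimum fold-change, 2 with the replicate block, 4 in edgeR, 6 in edgeR with the block, 5 in DESeq2 and 1 to 3 without single libraries. DESeq2 called 349 of all genes higher at 18 h. The downregulated genes at 18 h numbered 0, against 1 with no minimum fold-change (Foxd3), 1 in edgeR with the block (Sox10) and 0 to 1 without single libraries. At 24 h the 4 upregulated became 1 with a pseudocount of 1 or a mean of at least 1 FPKM, 7 in edgeR with the block and 2 to 4 without single libraries. With a pseudocount of 1 the log2 fold-changes at 24 h were 0.46 for Tfap2a, 0.46 for Msx2 and 0.26 for Sox9. A mean of at least 1 FPKM leaves Ngfr and Foxd3 alone to be tested. The 1 downregulated gene at 24 h was kept throughout. Pairing by the replicate block in limma changed the call of Msx1 and of no other of the 7 genes tested by limma. DESeq2 gave no adjusted p for Tfap2b and Pax7 in any comparison, nor for Sox9, Pax3 and Sox10 between 24 h and 18 h. Among list genes that were not called, the sign changed for Gata6 at 24 h compared with 0 h (-0.018 after quantile normalization) and Id1 at 24 h compared with 18 h (-0.0034 in DESeq2). Without single libraries it also changed for Gata6 (-0.011 to 0.28 at 18 h, -0.11 to 0.15 at 24 h and -0.28 to 0.055 between them), Col1a2 (-0.91 to 0.091, -0.64 to 0.36 and -0.14 to 0.73) and, between 24 h and 18 h, Foxd4 (-0.032 to 0.63), Id1 (-0.062 to 0.065), Id3 (-0.010 to 0.12), Snai1 (-0.092 to 0.032) and T (-0.74 to 0.047). Depth limits Tfap2b, Pax7, Pax3, Sox10 and Sox9, which had at most 40 reads in any library.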

Other observations

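Genes of neighbouring tissues were counted in further lists, beside 2.07% of all genes called higher at 24 h by limma and 2.81% by edgeR. Of 7 dorsal neural tube genes tested, 1 was upregulated by limma at 24 h, with a median log2 fold-change of 0.74, or 0.19 with a pseudocount of 1. This was Lmx1b, a LIM homeobox gene of the roof plate, which stood at 0.159±0.0344 FPKM before dox, 2.54±0.643 FPKM at 18 h and 3.76±0.911 FPKM at 24 h (3.88; adjusted p = 5.83e-05), while Wnt1 was at 0 in all libraries. EdgeR also called Wnt3a at 24 h (1.26; adjusted p = 0.0293). Lmx1a, below the limma filter, was lower than at 0 h without overlap at both times. It had 15 reads in sum at 0 h, 5 at 18 h and 5 at 24 h, and edgeR did not call it. Of 7 neural plate genes, 1 was upregulated by limma at 24 h, with a median of 0.12. This was Sox1, which went from 0.351±0.179 to 1.06±0.391 and 2.46±0.920 FPKM (adjusted p = 0.00496). At 18 h Sox1 had 1.39 (adjusted p = 0.0541, or 0.00754 with the replicate block) by limma, and was called by edgeR (1.61; adjusted p = 0.0193) and DESeq2 (1.60; adjusted p = 0.0121). Hesx1 went the other way, from 0.527±0.149 to 0.233±0.0655 and 0.231±0.166 FPKM. It lay below 0 h without overlap at both times, which holds for 13.5% of genes at 18 h and 14.2% at 24 h. Its unadjusted p by limma was below 0.05 at both times, as was that of Nes, which was higher, at 18 h. Neither was called.

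Among 6 paralogs of the 10 genes that could be tested, 2 were upregulated by limma at 24 h. They were Sox8 and the forkhead gene Foxd4, which went from 0.0237±0.0410 FPKM at 0 h to 1.36±0.608 FPKM at 24 h (3.54; adjusted p = 0.00123) and passed the filter of 0.1 FPKM only through the libraries with dox. With a pseudocount of 1 Sox8 was not called. EdgeR tested 12 and called 4 at 24 h, Sox8, Foxd4 and Tfap2c higher and Pax8 lower (-2.21; adjusted p = 0.0293). Foxd4 thus differed in direction from its relative Foxd3, a difference that was not tested. Of 8 tested genes for neurotrophins and partners of the Ngfr receptor, 0 were called at 18 h or 24 h by limma, edgeR or DESeq2, with 2 genes at an unadjusted p below 0.05 at each time in each tool. The highest was Sort1, a co-receptor gene, at 9.24±1.54 FPKM at 0 h and 15.2±1.09 FPKM at 24 h (0.72; adjusted p = 0.00585), under the minimum fold-change.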
